A study of Zea mays with 12 samples.

Results

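The UDP-glycosyltransferases of maize (Zea mays) were followed across plants given the Bacillus velezensis strain BV-3 and CK plants (CK is the control label), in a disease class labelled susceptible and one labelled resistant. Members were the genes whose deposited NR or Swiss-Prot description names a UDP-glycosyltransferase or UDP-glucosyltransferase. Descriptions that also name DIMBOA, anthocyanidin, flavon, cytokinin or zeatin were left out. The search matched 153 of 52932 genes, 36 were left out in this way, and 117 remained. Of these, 94 matched by their Swiss-Prot description, 76 by their NR description and 53 by both.

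UDP-glycosyltransferases move a sugar, in plants mostly glucose, from a UDP-sugar to a small acceptor such as a hormone, a phenolic compound or a toxin. The sugar makes the acceptor more soluble, allows its storage in the vacuole and often ends its activity, and beta-glucosidases can take it off again. In grasses the family is known for storing defence compounds and auxin as glucosides and for disarming the Fusarium toxin deoxynivalenol.

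The 4 groups were BV-3 susceptible, CK susceptible, BV-3 resistant and CK resistant, with 3 libraries each that the labels call separate biosamples. The tissue label is whole body. In the sample titles the classes carry different codes under CK and under BV-3, which the labels do not explain. The titles thus do not tie a BV-3 group to the CK group of its class. The sources used here do not give plant age, harvest time or any mock treatment of CK plants. In such bulk RNA, fewer cells of a type and less RNA per cell cannot be told apart.

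Library totals were 27.0 to 37.8 M counts (M, mega). Among the BV-3 libraries, 246 genes had reads in the susceptible class with at most 2 counts in any resistant library, and 339 genes showed the opposite. CK susceptible 1 carried 98.0% of the first set and 0.59% of the second. The library labelled CK susceptible 2 carried 0.813% and 94.4%, and the library labelled CK susceptible 3 carried 1.63% and 95.0%, so both went against their label and resembled the resistant class. CK resistant 2 also stood apart: its 35 leaf markers that averaged at least 1 FPKM had a median of -3.63 on the centred log2 scale, against -0.65 or more elsewhere, and its 306 cytosolic ribosome genes above that level a median of 2.33, against 0.42 or less. Summed leaf markers were 11735 to 39470 FPKM in BV-3 libraries and 1345 to 42979 FPKM in CK libraries, with 5 to 7 of the 43 listed at 0. Of the 27 root markers, 6 to 14 had no count, and their sum was 61 to 108 FPKM in all libraries. The 19 morning clock genes summed to 640 to 3348 FPKM in BV-3 libraries and 167 to 469 FPKM in CK libraries, with 1 to 4 of them at 0. BV-3 susceptible 3 stood apart in its clock genes: it had the 640 FPKM just given, and its 18 evening clock genes summed to 419 FPKM, against 76.2 to 129 FPKM in the other 11 libraries. The part of these clock differences in the results below was not tested.

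The members did not all look like one enzyme family. The UDP-glucosyl transferase domain (Pfam) was annotated in 78 of the 117, no domain in 31 and another domain in 8. The largest subfamily was UGT73 with 29 members, followed by UGT13248 with 10 and UGT83 with 9. A further 8 carried the name TURAN, from an Arabidopsis protein of the endoplasmic reticulum that acts on N-glycans and not on small molecules. The name is thus wider than the small-molecule enzymes, and 1 TURAN-named gene (Zm00001eb023770) was annotated with an aminotransferase domain. Likewise, Zm00001eb061910 took the name UGT83A1 from its NR description alone and was annotated with a Major Facilitator Superfamily domain. Most members were weakly expressed: 48 averaged at least 1 FPKM over the 12 libraries, 7 averaged at least 10 FPKM and 15 had no count in any library. FPKM, the authors' fragments per kilobase of gene, scaled to library size, allows levels of different genes to be set side by side. After the filter on low counts 78 members were tested, of which 59 carried the domain. The 39 others reached at most 0.73 FPKM in any library.

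The most abundant member was a UGT13248-named gene (Zm00001eb020970). Its NR description is indole-3-acetate beta-glucosyltransferase, which in maize joins auxin to glucose, whereas barley UGT13248 glucosylates deoxynivalenol. It had 41.8, 48.8 and 66.4 FPKM in BV-3 susceptible libraries, against 84.8, 113 and 118 FPKM in CK susceptible libraries. Resistant plants had 74.0, 52.6 and 47.7 FPKM under BV-3, against 127, 53.9 and 112 FPKM under CK. The susceptible groups did not overlap, and in the resistant class CK resistant 2 lay among the BV-3 libraries. The log2 fold change was -1.01 ± 0.39 (SE) in the susceptible class (edgeR adjusted p = 0.13) and -0.62 ± 0.39 in the resistant class (adjusted p = 0.607), so neither passed the test. This gene made up 11.1 to 20.1% of the summed FPKM of all members in BV-3 libraries and 22.0 to 34.4% in CK libraries, ranges that did not overlap.

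UGT72B1 (Zm00001eb167530) averaged 30.9 FPKM over all libraries; Arabidopsis UGT72B1 conjugates phenolic xenobiotics and lignin precursors. It ranged between 24.2 and 37.7 FPKM in the 6 BV-3 libraries and between 7.63 and 48.1 FPKM in the 6 CK libraries, with its lowest value in CK resistant 2. A second UGT13248-named gene (Zm00001eb020980), which lies beside the most abundant one, averaged 14.5 FPKM, and UGT87A2 (Zm00001eb150460), named after an Arabidopsis gene that affects flowering time, also averaged 14.5 FPKM. UGT86A1 (Zm00001eb047200) averaged 13.7 FPKM and its values overlapped between BV-3 and CK in both classes. CK resistant 2 held the single lowest value of 17 of the 48 members above 1 FPKM, against 0 to 7 in each other library, and the single highest value of 8.

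**Figure D1:**
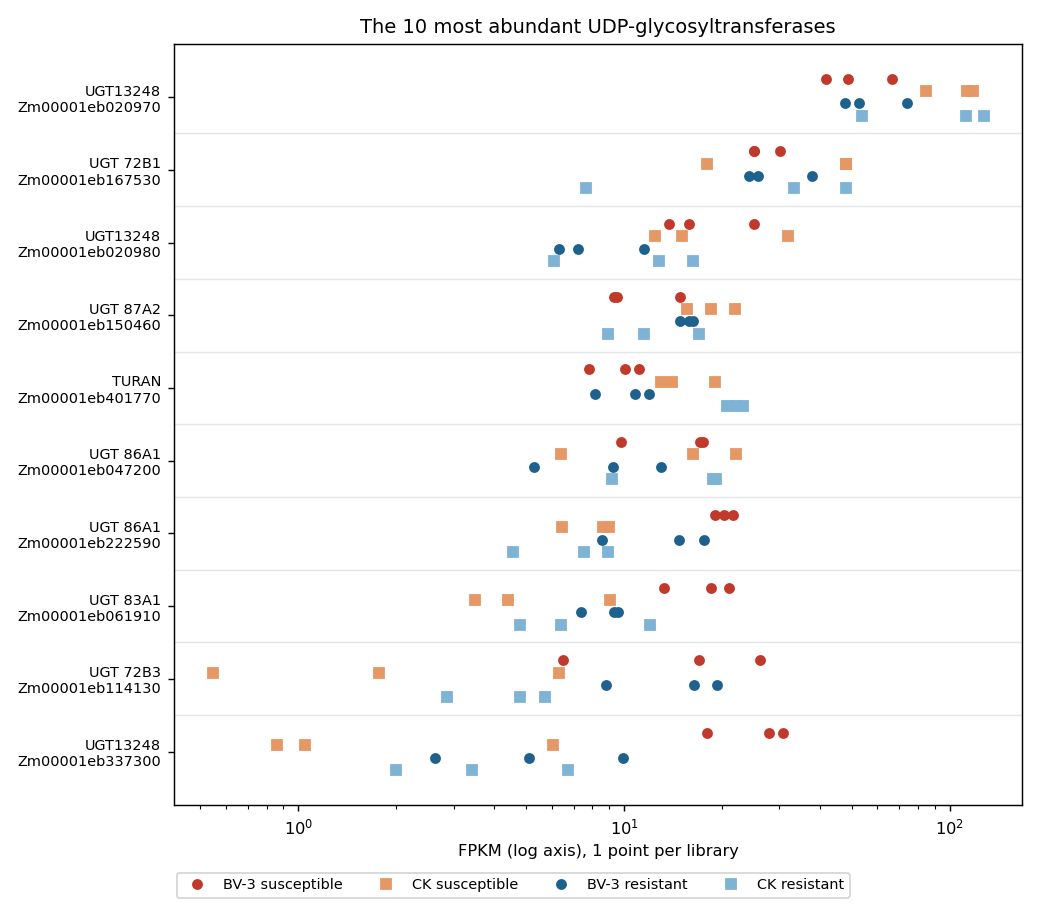
FPKM on a log axis of the 10 members with the highest mean over all libraries, 1 point per library, in BV-3 susceptible, CK susceptible, BV-3 resistant and CK resistant plants. The top gene, Zm00001eb020970, lay between 41.8 and 66.4 FPKM in BV-3 susceptible libraries, below all CK susceptible libraries, while UGT13248 Zm00001eb337300 in the bottom line lay at 18.0 FPKM or more there and at 9.93 FPKM or less in the other 9.

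The sums over all members were 377, 417 and 416 FPKM in BV-3 susceptible, 335, 404 and 376 FPKM in CK susceptible, 367, 338 and 285 FPKM in BV-3 resistant, and 370, 245 and 384 FPKM in CK resistant libraries. BV-3 and CK overlapped in both classes. Without the most abundant member the sums were 335, 369 and 349 FPKM in BV-3 susceptible libraries, against 251, 291 and 258 FPKM in CK susceptible libraries, which did not overlap. In the resistant class they were 293, 285 and 237 FPKM under BV-3 and 242, 191 and 272 FPKM under CK, which overlapped. UGT73 members summed to 27.3, 26.8 and 31.4 FPKM in BV-3 susceptible libraries, against 22.6, 19.9 and 15.8 FPKM in CK susceptible libraries. They summed to 27.6, 25.7 and 21.8 FPKM in BV-3 resistant libraries, against 12.0, 17.8 and 15.5 FPKM in CK resistant libraries. BV-3 libraries were above CK libraries in both classes, though none of the 16 tested UGT73 members was called in either. UGT83 members summed to 40.3, 61.4 and 37.9 FPKM in BV-3 susceptible libraries and to 22.3, 27.4 and 15.5 FPKM in CK susceptible libraries. In the resistant class they summed to 22.2, 23.8 and 16.7 FPKM under BV-3 and to 13.8, 15.2 and 15.8 FPKM under CK. These sums include Zm00001eb061910, annotated with a Major Facilitator Superfamily domain, which averaged 17.6 FPKM in BV-3 susceptible libraries. The sum of TURAN-named members went the other way, with 12.9, 10.2 and 15.9 FPKM in BV-3 susceptible against 17.9, 25.3 and 18.5 FPKM in CK susceptible libraries. In the resistant class it was 14.9, 15.4 and 15.9 FPKM under BV-3, against 28.0, 24.2 and 26.5 FPKM under CK. Most of it was 1 gene, Zm00001eb401770, described below. That gene averaged 9.67 FPKM in BV-3 susceptible, 15.3 FPKM in CK susceptible, 10.3 FPKM in BV-3 resistant and 21.9 FPKM in CK resistant libraries. Other subfamily sums also separated the susceptible groups: UGT71, UGT84, UGT86, UGT89, UGT91 and UGT708 upward, and UGT87 and UGT92 downward. No sum was tested.

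The response of the susceptible class to BV-3 was asked by comparing BV-3 susceptible with CK susceptible libraries. With edgeR's quasi-likelihood test on all 12 libraries, 6 of the 78 tested members were called at an adjusted p under 0.05, against 6.2% of all 34291 genes tested. Higher under BV-3 were 4 members (2.3% of all genes) and lower were 2 (3.9% of all genes). The members' share of calls, 7.69%, was thus near that of all genes. DESeq2 called 23 members (20.4% of all genes) and limma on log2(FPKM + 1) called 12 (6.63% of all genes). Groups of 3 libraries did not overlap in 25 members with BV-3 higher, 32.1% against 18.6% of all genes, and in 10 with BV-3 lower, 12.8% against 14.1%. An unadjusted p under 0.05 was found for 30 members, 38.5% against 26.7% of all genes. The median log2 fold change was 0.21 over members and 0.07 over all genes.

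The largest call was UGT89B2 (Zm00001eb199260), a name taken from a Stevia enzyme. It had 2.06, 1.23 and 1.10 FPKM in BV-3 susceptible libraries, against 0.166, 0.0763 and 0.0555 FPKM in CK susceptible libraries. All 3 BV-3 values lay far above the highest CK value, with a log2 fold change of 3.65 ± 0.75 (adjusted p = 0.0398). It stayed low in the resistant class, with 0.188, 0.222 and 0.0626 FPKM under BV-3 against 0.175, 0.212 and 0.199 FPKM under CK.

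A UGT13248-named gene (Zm00001eb337300) had 27.9, 30.7 and 18.0 FPKM in BV-3 susceptible libraries, against 6.05, 0.861 and 1.05 FPKM in CK susceptible libraries. The highest of these CK susceptible values was that of CK susceptible 1, whose line markers fitted its label. The log2 fold change was 3.22 ± 0.82 (adjusted p = 0.047). The groups overlapped in the resistant class, with 5.12, 9.93 and 2.62 FPKM under BV-3 and 6.71, 3.43 and 2.00 FPKM under CK (log2 fold change 0.52 ± 0.76, adjusted p = 0.858).

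A gene with the NR name limonoid UDP-glucosyltransferase (Zm00001eb234750) had 7.20, 9.99 and 16.9 FPKM in BV-3 susceptible libraries, against 2.11, 1.43 and 0.584 FPKM in CK susceptible libraries. In citrus the enzyme of that name glucosylates bitter limonoids; maize substrates are not given in the files. The log2 fold change was 3.03 ± 0.61 (adjusted p = 0.0398), and the gene was also higher without overlap in the resistant class, with 2.39, 4.63 and 2.47 FPKM under BV-3 against 2.02, 0.479 and 2.05 FPKM under CK. UGT86A1 (Zm00001eb222590) had the tightest values of the 4, with 21.5, 20.3 and 19.0 FPKM in BV-3 susceptible libraries and 6.47, 8.98 and 8.65 FPKM in CK susceptible libraries. Its log2 fold change was 1.32 ± 0.33 (adjusted p = 0.046).

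Lower under BV-3 were UGT85A5 and UGT79. UGT85A5 (Zm00001eb415060) had 0.622, 1.73 and 0.478 FPKM in BV-3 susceptible libraries, against 6.49, 14.0 and 11.0 FPKM in CK susceptible libraries. The groups lay far apart, and the log2 fold change was -3.45 ± 0.76 (adjusted p = 0.0426). UGT79 (Zm00001eb419720), named after a rice enzyme that glucosylates deoxynivalenol, had 0.365, 0.613 and 0.578 FPKM in BV-3 susceptible libraries and 1.21, 5.06 and 3.12 FPKM in CK susceptible libraries. Its log2 fold change was -2.51 ± 0.65 (adjusted p = 0.0486).

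**Figure D2:**
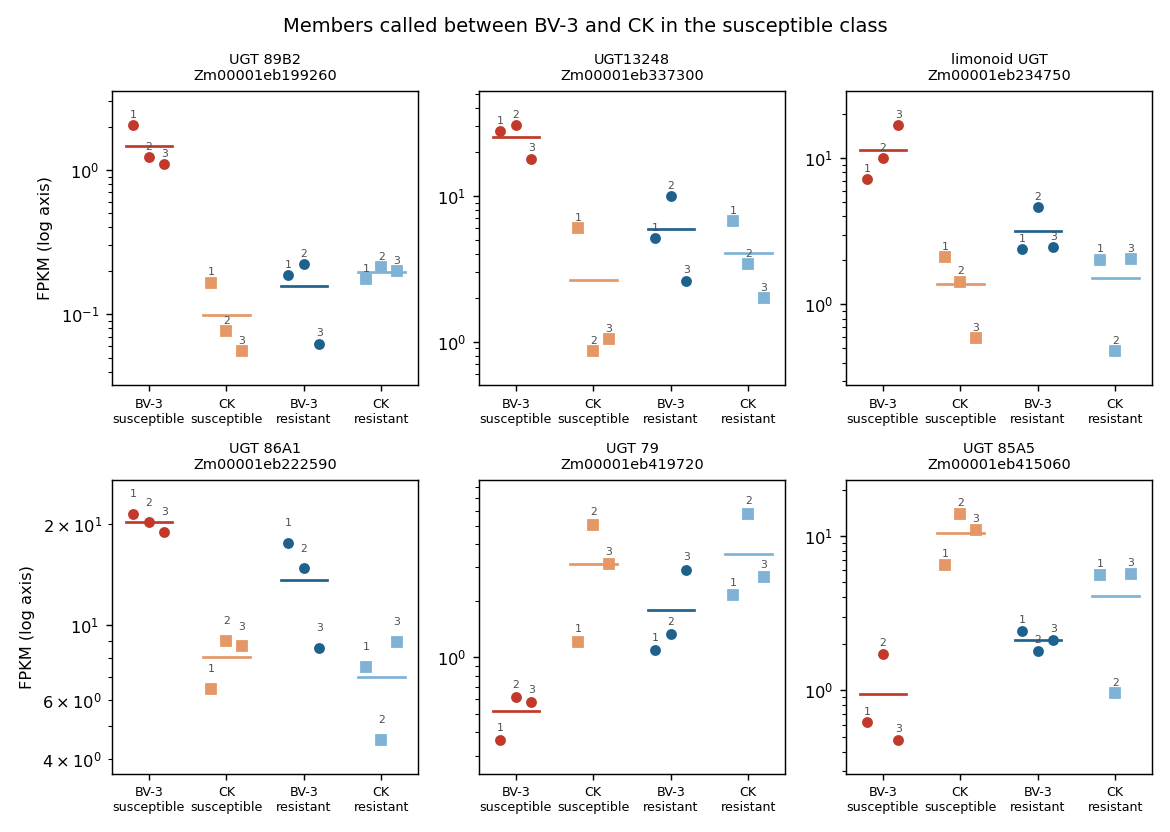
FPKM on log axes of the 6 members called between BV-3 susceptible and CK susceptible plants, 1 panel each; points are libraries with their replicate number and bars are group means. The 4 members in the first panels lay higher in all BV-3 susceptible libraries than in all CK susceptible ones, and UGT79 and UGT85A5 lay lower.

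All 6 calls used the libraries labelled CK susceptible 2 and 3, which went against their label. Without the libraries labelled CK susceptible 2 and 3, 1 CK library remained, whose spread is taken from the remaining groups, and none of the members was called (0.0% of all genes). UGT89B2, UGT13248 Zm00001eb337300, the limonoid-named gene and UGT86A1 then had log2 fold changes of 2.86, 2.02, 2.38 and 1.59, and UGT85A5 and UGT79 of -2.81 and -1.28, with adjusted p between 0.749 and 0.843. The count also moved with other libraries: it was 20 without CK susceptible 1, 16 without CK resistant 2 and 0 without any one of the other 10. Without CK susceptible 1, the CK susceptible group held only CK susceptible 2 and 3, which went against their label. The share of all genes called in these fits is not given here, so the counts are not read as a result about the members. In a fit of the 2 groups alone 5 members were called, against 4.43% of 30090 genes, 4 of them higher (1.67% of all genes) and 1 lower (2.75% of all genes). UGT13248 Zm00001eb337300 (adjusted p = 0.0765) and UGT79 Zm00001eb419720 (adjusted p = 0.0639) were not among them, and UGT91D2 (Zm00001eb051070, adjusted p = 0.0486 in edgeR) was.

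Set against CK susceptible 1 alone, with no test, all 3 BV-3 susceptible libraries were above it in 34 of the 78 members, 43.6% against 31.3% of all genes, and below it in 23, 29.5% against 26.1%. A stricter description asked where the 3 BV-3 susceptible libraries lay above all the other 9. This held for 13 of the 78 members, 16.7% against 5.49% of all genes, and the opposite held for 2, 2.56% against 3.74%. The 13 include the 4 called higher as well as UGT71K1 (Zm00001eb322270), a name from an apple enzyme that makes phlorizin from phloretin. UGT71K1 had 10.6, 17.5 and 19.6 FPKM in BV-3 susceptible libraries, against 5.14, 6.12 and 5.86 FPKM in CK susceptible libraries, and did not pass the test (log2 fold change 1.46 ± 0.55, adjusted p = 0.124).

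Several members are neighbours in the RefSeq gene order of Zm-B73-REFERENCE-NAM-5.0, with at most 2 genes between them; the order was taken by gene symbol. In 1 pair, UGT13248 Zm00001eb318570 had 3.52, 1.46 and 9.47 FPKM in BV-3 susceptible libraries, against 0.223, 0.794 and 0.319 FPKM in CK susceptible libraries. Its neighbour UGT79 Zm00001eb318580 had 2.57, 2.37 and 3.28 FPKM, against 0.206, 0 and 0.0486 FPKM. Both were higher in all 3 BV-3 libraries, with log2 fold changes of 3.43 ± 1.00 (adjusted p = 0.0613) and 4.84 ± 1.30 (adjusted p = 0.0513) that missed the threshold. A second pair with the same names ran the opposite way. UGT13248 Zm00001eb419710 had 0.608, 0.937 and 0.514 FPKM in BV-3 susceptible libraries and 1.96, 3.66 and 2.55 FPKM in CK susceptible libraries (log2 fold change -1.97 ± 0.53, adjusted p = 0.0507), beside UGT79 Zm00001eb419720 described above. These were the 2 members below all other 9 libraries in BV-3 susceptible plants.

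A group of 4 UGT83A1-named neighbours did not move as one. Zm00001eb057790 had 11.2, 28.7 and 11.5 FPKM in BV-3 susceptible libraries, against 6.20, 1.37 and 1.30 FPKM in CK susceptible libraries, and 1.74, 1.19 and 1.20 FPKM in BV-3 resistant against 0.679, 0 and 1.17 FPKM in CK resistant libraries. Zm00001eb057740 overlapped, with 5.37, 9.79 and 10.6 FPKM in BV-3 susceptible and 4.33, 18.6 and 6.93 FPKM in CK susceptible libraries. The remaining 2 averaged 0.523 and 0.82 FPKM over all libraries. In rice, a UGT83A1 glucosylates flavonoids and lignin precursors. Neighbours of 1 name can share reads, and the sources used here do not state how such reads were counted.

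**Figure D3:**
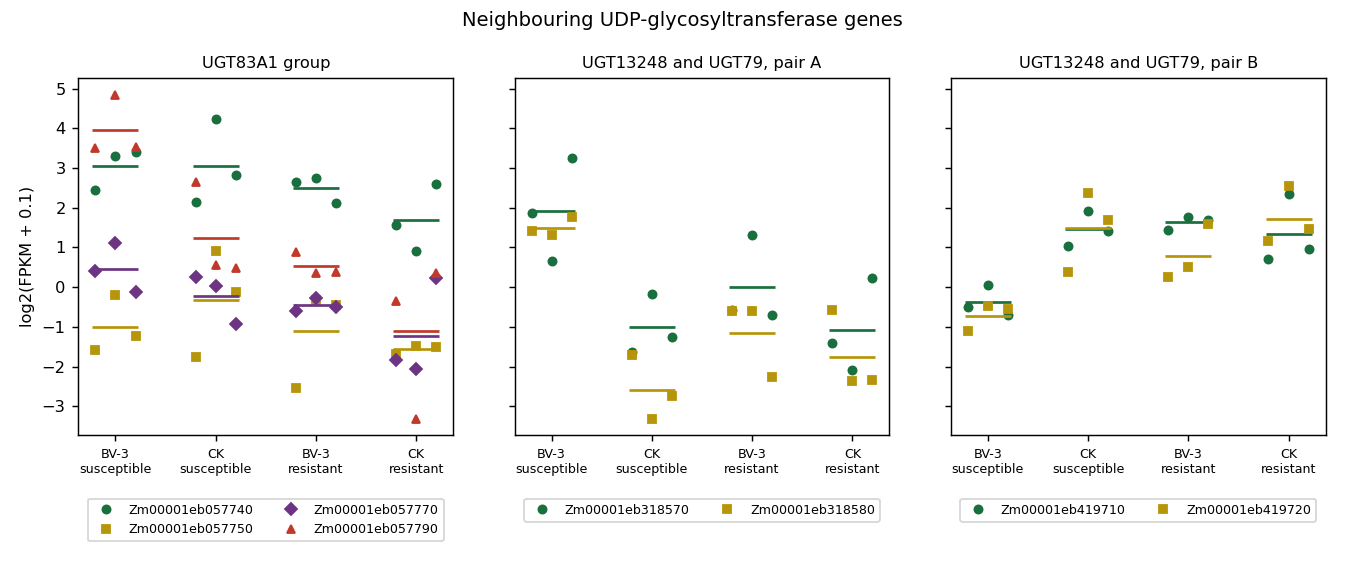
log2(FPKM + 0.1) of neighbouring members in the 4 groups, 1 point per library, with bars at the group means on this scale. The UGT13248 and UGT79 genes of pair A (Zm00001eb318570 and Zm00001eb318580) were highest in BV-3 susceptible plants, those of pair B (Zm00001eb419710 and Zm00001eb419720) were lowest there, and in the UGT83A1 group Zm00001eb057790 was highest there.

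In the resistant class, BV-3 and CK were compared in the same fit. None of the 78 members was called with edgeR, as was none of the 34291 genes (0.0%), while 9 members had an unadjusted p under 0.05, 11.5% against 10.1% of all genes; DESeq2 called 2 members (3.04% of all genes) and limma 0 (0.0175% of all genes). The fitted values leaned upward: 54 of the 78 members had a positive log2 fold change, 69.2% against 43.8% of all genes, with a median of 0.53 against -0.07. Groups did not overlap in 11 members with BV-3 higher, 14.1% against 7.71%, and in 5 with BV-3 lower, 6.41% against 9.46%. Without CK resistant 2 and the 2 libraries labelled against their line markers, the median was 0.58 over members and 0.01 over all genes. In the susceptible class 41 of 78 were positive, 52.6% against 52.3% of all genes.

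The smallest p in the resistant class belonged to TURAN-named Zm00001eb401770, whose NR name is beta-1,4-mannosyltransferase, an enzyme of N-glycan assembly. It had 8.14, 10.8 and 12.0 FPKM in BV-3 resistant libraries, against 23.3, 21.9 and 20.7 FPKM in CK resistant libraries. In the susceptible class it had 10.0, 7.83 and 11.1 FPKM under BV-3, against 14.1, 19.0 and 12.9 FPKM under CK. BV-3 libraries were below CK libraries in both classes, and neither log2 fold change, -1.04 ± 0.23 (adjusted p = 0.329) or -0.68 ± 0.23 (adjusted p = 0.093), passed the test.

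UGT73C5 (Zm00001eb170510) had 8.40, 2.48 and 10.1 FPKM in BV-3 resistant libraries, against 1.29, 0.221 and 0.537 FPKM in CK resistant libraries. Arabidopsis UGT73C5 glucosylates deoxynivalenol and brassinosteroids. In the susceptible class it did not separate the groups, with 6.36, 4.28 and 1.24 FPKM under BV-3 and 3.96, 3.49 and 5.89 FPKM under CK. Its log2 fold change was 3.43 ± 0.85 in the resistant class (adjusted p = 0.332) and -0.19 ± 0.77 in the susceptible class (adjusted p = 0.899), and the difference of the 2 effects was 3.62 ± 1.13 (adjusted p = 0.235). UGT76B1 (Zm00001eb304020) is named after an Arabidopsis enzyme that glucosylates salicylic acid and N-hydroxypipecolic acid, both immune signals. It had 5.90, 4.43 and 6.62 FPKM in BV-3 resistant libraries, against 2.52, 0.342 and 2.02 FPKM in CK resistant libraries (log2 fold change 1.85 ± 0.65, adjusted p = 0.423). In the susceptible class it had 3.08, 1.86 and 3.49 FPKM under BV-3 and 4.04, 2.32 and 5.00 FPKM under CK, which overlapped.

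UGT72B1 Zm00001eb204620 had 13.7, 3.71 and 15.6 FPKM in BV-3 resistant libraries and 2.54, 3.60 and 5.49 FPKM in CK resistant libraries, and the second BV-3 library lay among the CK libraries. UGT91A1 (Zm00001eb146860) had 2.95, 3.13 and 1.92 FPKM in BV-3 resistant and 1.19, 0.628 and 2.17 FPKM in CK resistant libraries. UGT86A1 Zm00001eb222590, called in the susceptible class, had 17.6, 14.8 and 8.56 FPKM in BV-3 resistant and 7.51, 4.55 and 8.94 FPKM in CK resistant libraries. In each of these 3 genes the groups overlapped through 1 BV-3 library. Their log2 fold changes were 1.71 ± 0.58 (adjusted p = 0.408), 1.08 ± 0.46 (adjusted p = 0.476) and 1.04 ± 0.33 (adjusted p = 0.387).

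In both classes, 5 members were higher under BV-3 with no overlap, against 2.69% of all genes, and 1 was lower, against 2.83%. The 5 were the limonoid-named gene, UGT83A1 Zm00001eb057790, UGT72B3 Zm00001eb114130, UGT73D1 Zm00001eb042870 and UGT708A6 Zm00001eb280920, and the lower one was TURAN-named Zm00001eb401770. UGT72B3 had 17.0, 26.1 and 6.49 FPKM in BV-3 susceptible libraries, against 6.32, 0.546 and 1.76 FPKM in CK susceptible libraries. Its lowest BV-3 value lay just above the highest CK value, that of CK susceptible 1. In the resistant class it had 16.5, 19.4 and 8.83 FPKM under BV-3, against 2.86, 4.81 and 5.73 FPKM under CK, with log2 fold changes of 2.47 ± 0.79 (adjusted p = 0.0791) and 1.81 ± 0.77 (adjusted p = 0.481) in the susceptible and the resistant class. UGT708A6, a maize C-glucosyltransferase of flavonoid precursors, had 11.7, 4.92 and 4.25 FPKM in BV-3 susceptible against 1.89, 0.834 and 3.57 FPKM in CK susceptible libraries. It had 3.92, 4.48 and 2.94 FPKM in BV-3 resistant against 2.29, 0.244 and 0.902 FPKM in CK resistant libraries.

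**Figure D4:**
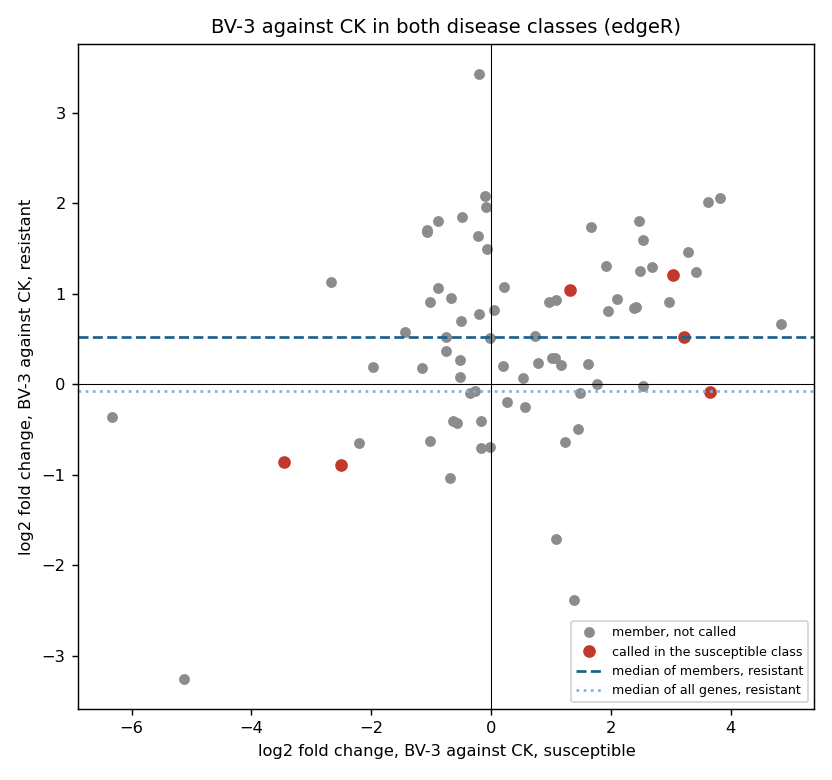
log2 fold change of BV-3 against CK from edgeR for the 78 tested members, susceptible class on the horizontal and resistant class on the vertical axis; red points are the 6 members called in the susceptible class. The dashed line marks the members' median in the resistant class, 0.53, and the dotted line that of all genes, -0.07.

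Whether the effect of BV-3 differed between the classes was tested as an interaction. None of the 78 members was called with edgeR, as was none of all genes (0.0%). An unadjusted p under 0.05 was found for 20 members, 25.6% against 13.7% of all genes. DESeq2 called 4 (4.98% of all genes) and limma 0 (0.00583% of all genes). The susceptible effect used here includes CK susceptible 2 and 3, which went against their label. The median difference of the effects was -0.18 over members and -0.13 over all genes. Without these 2 libraries, which leaves 1 CK susceptible library, it was -0.03 and -0.21.

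The disease classes were then compared under BV-3. The line markers were chosen from these 6 libraries and so do not check their labels. In the 12-library fit 0 of 78 members were called, as were 0.0% of all genes, with 22 members at an unadjusted p under 0.05 (28.2% against 21.9%) and 15 called by DESeq2 (13.8% of all genes) and 6 by limma on log2(FPKM + 1) (6.97% of all genes). In a fit of these 6 libraries alone, which leaves the spread of the CK libraries out, 13 of 74 tested members were called, against 16.8% of 31752 genes. Only 1 was higher in the resistant class (6.86% of all genes) and 12 were lower (9.98% of all genes). The median log2 fold change was -0.27 over members and -0.00486 over all genes in that fit. Groups did not overlap in 13 members with resistant higher, 16.7% against 20.8% of all genes, and in 18 with resistant lower, 23.1% against 14.7%. Values and adjusted p below are from this 6-library fit.

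UGT85A5 Zm00001eb102070 had no count in BV-3 resistant libraries, against 2.46, 3.30 and 5.74 FPKM in BV-3 susceptible libraries, at least 24.5-fold lower against a floor of 3 counts per library. It also had no count in CK resistant libraries or in the libraries labelled CK susceptible 2 and 3, while CK susceptible 1 had 3.20 FPKM. The gene thus followed the line markers and not the treatment. A gene with no counts was not told apart from one whose reads failed to map to the gene models. UGT13248 Zm00001eb285180 followed the markers too, with 0.274, 0.304 and 0.322 FPKM in BV-3 resistant libraries against 2.52, 1.65 and 3.33 FPKM in BV-3 susceptible libraries, and 2.66 FPKM in CK susceptible 1. The other 5 CK libraries had 0.154 to 0.378 FPKM, and the log2 fold change under BV-3 was -3.24 ± 0.42 (adjusted p = 0.00429). In the opposite direction, TURAN-named Zm00001eb180660 had 0.599, 0.275 and 0.164 FPKM in BV-3 resistant libraries against no count in BV-3 susceptible libraries or in CK susceptible 1, at least 4.29-fold higher; it did not enter the 6-library fit.

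Most other members called in this comparison were among those with all 3 BV-3 susceptible libraries above the other 9. The other 9 include the BV-3 resistant libraries, so lower values there are part of that choice and not a separate result. UGT83A1 Zm00001eb057790, with the values given above, was lower in BV-3 resistant plants by a log2 fold change of -3.82 ± 0.50 (adjusted p = 0.00447). UGT89B2 (Zm00001eb199260) was lower by -3.43 ± 0.56 (adjusted p = 0.00775), UGT13248 Zm00001eb337300 by -2.38 ± 0.45 (adjusted p = 0.0128), UGT71K1 by -2.05 ± 0.41 (adjusted p = 0.0158) and the limonoid-named gene by -1.94 ± 0.36 (adjusted p = 0.0121). UGT73C7 (Zm00001eb017980) had 0.167, 0.0802 and 0.213 FPKM in BV-3 resistant libraries, against 2.94, 1.48 and 0.537 FPKM in BV-3 susceptible libraries (log2 fold change -3.34 ± 0.78, adjusted p = 0.0276). UGT73C6 (Zm00001eb240450), after an Arabidopsis enzyme of flavonols and brassinosteroids, had 0.313, 0.450 and 0.385 FPKM in BV-3 resistant against 1.16, 1.31 and 2.08 FPKM in BV-3 susceptible libraries (-2.19 ± 0.44, adjusted p = 0.0153). UGT73C3 (Zm00001eb122610) was lower by -3.08 and UGT79 Zm00001eb318580 by -2.94. UGT83A1-named Zm00001eb061910, whose annotated domain is Major Facilitator Superfamily, was lower by -1.22.

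The single member that was higher in the resistant class was UGT13248 Zm00001eb419710. It had 2.61, 3.31 and 3.14 FPKM in BV-3 resistant libraries, against 0.608, 0.937 and 0.514 FPKM in BV-3 susceptible libraries (log2 fold change 1.90 ± 0.39, adjusted p = 0.0162). The groups lay well apart.

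**Figure D5:**
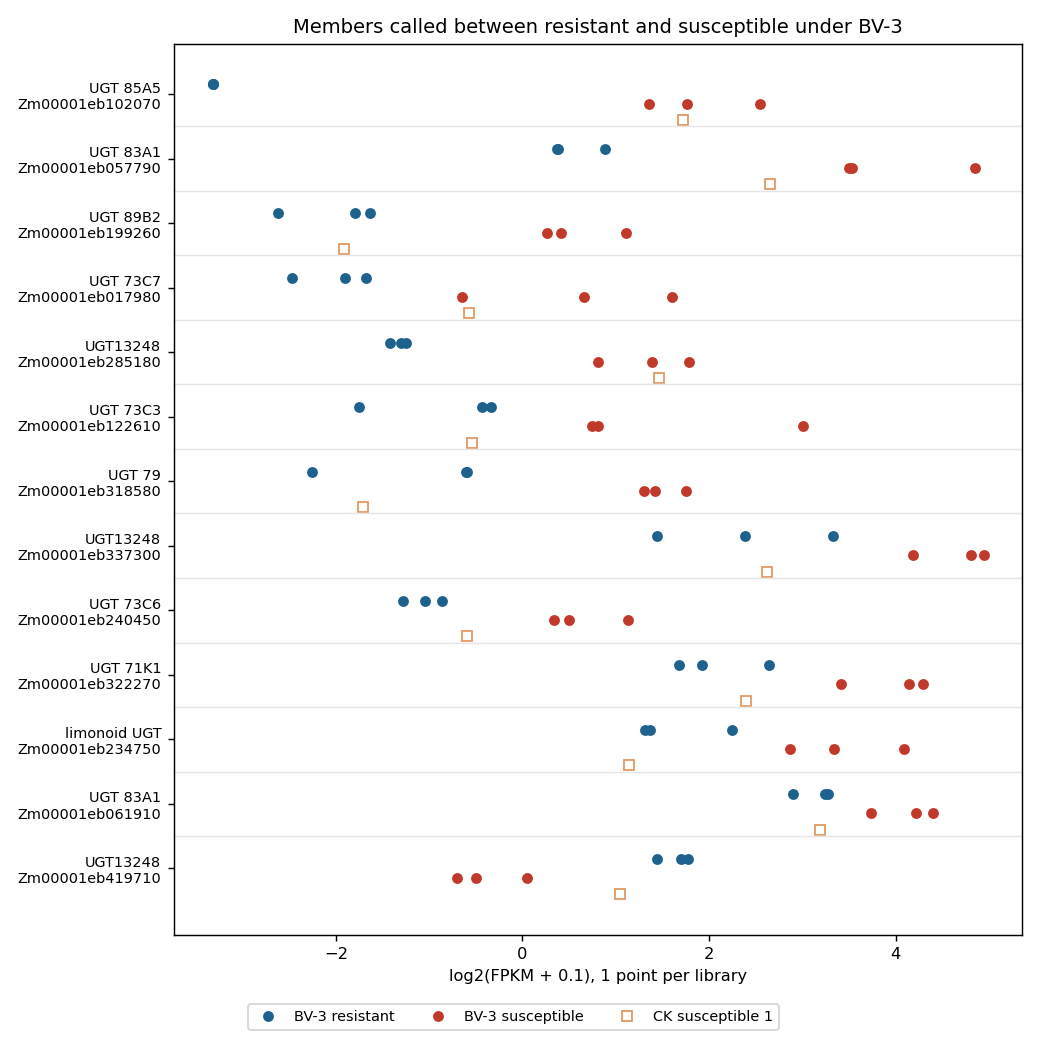
log2(FPKM + 0.1) of the 13 members called between BV-3 resistant and BV-3 susceptible plants in the fit of these 6 libraries; the open square is CK susceptible 1. In 12 members all BV-3 resistant libraries lay below all BV-3 susceptible ones, UGT13248 Zm00001eb419710 ran the other way, and CK susceptible 1 lay beside the BV-3 susceptible libraries for UGT85A5 Zm00001eb102070 and UGT13248 Zm00001eb285180.

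Under CK, the comparison of resistant with susceptible libraries set 3 resistant libraries against 1 susceptible-line library and 2 labelled against their markers. None of the 78 members was called with edgeR, as was none of all genes (0.0%); 14 had an unadjusted p under 0.05, 17.9% against 17.4%, DESeq2 called 4 (4.8% of all genes) and limma 0 (0.00292% of all genes). CK groups did not overlap in 5 members with resistant higher, 6.41% against 15.5% of all genes, and in 6 with resistant lower, 7.69% against 5.95%. The members with the smallest p were UGT73C5 Zm00001eb170510, described above, UGT72B3 Zm00001eb165630 with 3.29, 0.761 and 4.17 FPKM in CK resistant against 5.13, 11.3 and 9.20 FPKM in CK susceptible libraries, and UGT83A1 Zm00001eb057740. The next were UGT73C3 Zm00001eb173200, UGT87A2 Zm00001eb150460 and UGT73D1 Zm00001eb279490. Without the 2 libraries labelled against their markers 2 members were called, against 3.72% of all genes.

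Genes around the transfer step were read in the same way for BV-3 against CK in the susceptible class. Enzymes that turn UDP-glucose into other UDP-sugars, used for cell walls and as donors, included 4 genes called higher in the 12-library fit, where 2.3% of all genes were called higher and 3.9% lower. In the fit of the 2 groups alone none of these 4 genes was called. UDP-glucose 6-dehydrogenase, which makes UDP-glucuronic acid, was called higher in 2 of 3 genes. UDP-glucose 6-dehydrogenase 4 (Zm00001eb057810) had 452, 605 and 270 FPKM in BV-3 susceptible libraries, against 92.6, 27.7 and 36.2 FPKM in CK susceptible libraries (log2 fold change 3.05 ± 0.65, adjusted p = 0.0408). UDP-glucose 6-dehydrogenase 5 (Zm00001eb214560) had 493, 595 and 335 FPKM, against 94.5, 26.2 and 35.0 FPKM (2.94 ± 0.58, adjusted p = 0.0398). In both, the highest CK susceptible value was that of CK susceptible 1, still well below all BV-3 susceptible libraries. CK resistant libraries were higher, with 110, 298 and 121 FPKM for Zm00001eb057810 and 234, 235 and 146 FPKM for Zm00001eb214560. For Zm00001eb057810, CK resistant 2 lay above BV-3 susceptible 3.

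The next steps had 1 call each upward. UDP-glucuronic acid decarboxylase 4 (Zm00001eb346580), which makes UDP-xylose, rose by 2.76 ± 0.58 on the log2 scale (adjusted p = 0.0398) as 1 of 9 tested genes of its kind. Probable UDP-arabinose 4-epimerase 2 (Zm00001eb431050) rose by 2.42 ± 0.55 (adjusted p = 0.0426), while 1 other of the 11 tested epimerase genes was called lower. UDP-glucose pyrophosphorylase, which makes UDP-glucose, was called lower in 3 of 10 genes and higher in 0, and in the fit of the 2 groups in 1 of 7 and 0. One of these 3 (Zm00001eb301980) and the lower epimerase gene (NewGene_16831) had no count in any BV-3 susceptible library or in CK susceptible 1, but had counts in all the other 8. None of the 6 tested sucrose synthase genes and not the 1 UDP-rhamnose synthase gene was called in this comparison. Of 90 tested genes matched as beta-glucosidases, 1 was called higher, a glucan endo-1,3-beta-glucosidase (Zm00001eb386520), an enzyme type that cuts callose. Of the 99 listed genes, 70 were of this type. In the fit of the 2 groups 1 of 82 was called higher and 1 lower, and Zm00001eb386520 was neither. The lower one was Beta-glucosidase 5 (Zm00001eb149960). It had 34.2, 30.5 and 55.4 FPKM in BV-3 susceptible libraries, against 162, 187 and 172 FPKM in CK susceptible libraries (log2 fold change -2.20 ± 0.29, edgeR adjusted p = 0.0317).

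A wider list held 70 genes described as any glucosyltransferase or UDP-glycosyltransferase together with DIMBOA, anthocyanidin, flavon, cytokinin or zeatin, members left out. Of its 58 tested genes 3 were called higher and 1 lower, and in the fit of the 2 groups 1 of 57 was called higher and 1 lower. The lower gene in both fits was UGT73C5-named Zm00001eb170440. It had 1.16, 0.630 and 0.472 FPKM in BV-3 susceptible libraries, against 3.03, 7.99 and 12.1 FPKM in CK susceptible libraries (log2 fold change -3.36 ± 0.72, edgeR adjusted p = 0.0403). DIMBOA UDP-glucosyltransferase BX8 (Zm00001eb096940), which stores the benzoxazinoid defence compounds of maize as glucosides, had 13.5, 12.8 and 15.6 FPKM in BV-3 susceptible libraries, against 3.65, 3.73 and 2.74 FPKM in CK susceptible libraries (log2 fold change 2.03 ± 0.37, adjusted p = 0.0398). Cis-zeatin O-glucosyltransferase 1 (Zm00001eb074330), which stores cytokinin, had 17.5, 6.92 and 5.49 FPKM, against 1.57, 0.292 and 1.04 FPKM (3.30 ± 0.72, adjusted p = 0.0422). In the fit of the 2 groups BX8 Zm00001eb096940 was called and Zm00001eb074330 was not. A second BX8-named gene (Zm00001eb304060) had 0 FPKM in all BV-3 susceptible libraries and in CK susceptible 1. It had 0.117 and 0.472 FPKM in CK susceptible 2 and 3, and 1.47, 1.55 and 0.611 FPKM in BV-3 resistant libraries. For BX8 Zm00001eb096940, CK susceptible 1 was as low as the other CK libraries. All of these calls in the susceptible class share the CK libraries discussed above.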

How the data were processed

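The authors deposited 1 table with, per gene and library, raw counts and FPKM values (fragments per kilobase, scaled to library size, normalised by the authors), per the file headers. Libraries were poly(A)-selected and strand-specific, per the labels' protocols. The sources used here name no aligner, counter or strand setting. The submitters' processing notes name the build B73 RefGen, version 4, whereas the identifiers belong to a later annotation, so no coordinates are given. Of 52934 lines, 2 stray lines were dropped. Sequences of the members were not used here.

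Counts were tested with edgeR 4.0.16 (R 4.3.3): quasi-likelihood test, TMM scaling, filterByExpr, 4 group means over 12 libraries, Benjamini-Hochberg adjustment over all 34291 genes, called under 0.05. SE was derived from F. The common biological coefficient of variation was 0.682. P-values measure the spread between these biosamples. Replicate libraries differed far beyond sampling noise (mean chi-square per gene 66.9 to 452), so none was merged. Floors of 3 counts cover counting error only. The test was tried on simulated counts. Alternatives were DESeq2 1.42.0, limma 3.58.1 on log2(FPKM + 1) and log2(FPKM + 0.1), DESeq2 size factors, no filter, 2-group fits, a replicate block and libraries left out. Members, gene lists and tests were chosen with earlier results of these data known. Named genes were up to 8 called members per direction and comparison, else the 6 smallest p, with at least 1 FPKM, up to 6 per direction from the BV-3 fit, and the 10 most abundant; neighbours and genes separating groups in both classes were chosen after their values were seen.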

Additional observations from a re-analysis of the deposited data

Results flagged for a closer look

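UDP-Glycosyltransferase superfamily protein Zm00001eb322240, annotated with a glycosyl transferases group 1 domain, separated BV-3 from CK in opposite directions in the disease classes. It had 8.88, 10.6 and 11.3 FPKM in BV-3 susceptible libraries, against 7.91, 6.94 and 5.78 FPKM in CK susceptible libraries. In the resistant class it had 9.52, 8.86 and 8.81 FPKM under BV-3, against 10.8, 12.0 and 10.2 FPKM under CK. The difference of the log2 fold changes, resistant minus susceptible, was -0.82 ± 0.33 and did not pass the test (edgeR adjusted p = 0.31). Of all genes, 0.747% separated the groups in opposite directions. CK susceptible 2 and 3 went against their label.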

How the results depend on the processing

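Members called between BV-3 and CK in the susceptible class numbered 6 and became 23 with DESeq2, 12 (11 higher, 1 lower) with limma on log2(FPKM + 1), 10 (9 higher, 1 lower) on log2(FPKM + 0.1), 2 with a replicate block, and 0 without CK susceptible 2 and 3 or without these and CK resistant 2. DESeq2 size factors, no filter (4 called) and a fit of the 2 groups (5 called, 4 of them among the 6) stayed within 1.5-fold. In the resistant class 0 became 2 with DESeq2. For the classes under BV-3, 0 became 15 with DESeq2, 6 and 5 with limma, 13 in the 6-library fit, 6 without CK susceptible 2 and 3 and 18 without these and CK resistant 2. For the classes under CK, 0 became 4 with DESeq2, and the interaction count of 0 became 4 with DESeq2. Leaving out 1 library gave 0 to 20 calls in the susceptible class, 0 to 10 between the classes under BV-3 (10 without CK susceptible 1) and 0 to 3 for the interaction. Calls over all genes moved as well. For the classes under BV-3, 0.0% of all genes and of members were called in the 12-library fit. DESeq2 called 13.8% of all genes and 19.2% of members, and limma on log2(FPKM + 1) 6.97% and 7.69%. The 6-library fit called 16.8% and 17.6%. In both comparisons of the classes, members and all genes were also called without CK susceptible 2 and 3. That fit leaves 1 CK susceptible library, so its calls are not compared here. With limma on log2(FPKM + 0.1), DESeq2 size factors, no filter or 1 library left out, the share of all genes is not given. Those counts are not read as a result about the members. The cause of the shifts was not tested. Replicate numbers did not pair the libraries throughout: deviations of same-numbered libraries correlated between -0.15 and 0.45, and 4 of 12 libraries correlated best with their own number. The highest values were between BV-3 resistant and CK resistant, 0.37 for replicate 1 and 0.45 for replicate 2, against -0.06 for replicate 3. With the replicate block, all genes called in the susceptible class fell to 546, against 2125. Over single named genes, 448 values kept their side of the threshold, 57 passed it anew, 83 no longer passed it and 0 changed sign. With 3 libraries per group and CK groups that mix lines, a p above the threshold does not show that a member did not differ.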
